A study of Mus musculus with 8 samples.

Results

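The 32 complement system genes examined here were taken from a liver RNA-seq count table of 46078 genes, by matching the Ensembl mouse gene identifiers of a named list to gene symbols. All 32 were found in the table and all 32 passed the filter on low counts, which 14654 genes passed in all. They comprised 8 classical pathway genes, 5 lectin pathway genes, 4 alternative pathway genes, 7 terminal pathway genes, 6 regulators and 2 receptors. The list names genes by function, and was drawn up with earlier results of these data known.

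Livers came from 5 wild-type (WT) mice and 3 mice that had lost Rbfox2 from their hepatocytes (Rbfox2 KO), a gene for an RNA-binding protein that controls splicing. All 8 mice drank water with 30% (w/v) fructose for 22 weeks beside a control diet. Per the methods of the study they were 8 weeks old when the diets started, and were male where no other sex is named. Both groups carried loxP-flanked Rbfox2 alleles, and the WT mice lacked the Cre transgene. The genetic background of these mice was not stated there beyond the C57BL6/J, Rbfox2 loxP/loxP and Albumin-cre stocks used. The deletion was driven by a Cre recombinase under the albumin promoter acting on these alleles, so most other liver cells keep the gene. Livers were taken from fasted animals, and each library is labelled as a separate sample. No group without fructose was part of this comparison, so every value below describes complement transcripts in fructose-fed liver.

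Complement is a cascade of plasma proteins that marks microbes and damaged cells for removal. The classical pathway starts when C1q binds antibody or surface ligands, the lectin pathway starts when mannose-binding lectins or ficolins bind sugars, and the alternative pathway amplifies C3 that is already active. All routes meet at C3 and C5 and end in the membrane attack complex of C5b, C6, C7, C8 and C9. The liver is the main source of most circulating components, chiefly from hepatocytes, whereas C1q and properdin are made mostly by myeloid cells and factor D mostly by adipocytes.

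Total counts ran from 24829693 to 37823155 per library. Levels are given as CPM, read counts scaled to library size with TMM factors of edgeR, and 3 counts, the smallest level taken as measurable, equalled 0.0839 to 0.118 CPM. Rbfox2 itself was measured at 13.96, 20.5, 19.0, 17.9 and 23.2 CPM in WT 1 to 5 and at 6.84, 8.61 and 12.4 CPM in Rbfox2 KO 1 to 3. The groups did not overlap for this gene, and the exact two-sided permutation p was 0.0179, the smallest that 56 splits allow. Its log2 fold change was -1.03 ± 0.21 (SE), and the adjusted p in edgeR was 0.328. In all 8 livers 4 Y-linked genes summed to 95.1 to 116 CPM, and Xist, the X-inactivation transcript, reached at most 0.0786 CPM. Transcripts of other organs were present. In 2 libraries pancreatic RNA stood out, since 10 pancreatic exocrine genes summed to 429.6 CPM in Rbfox2 KO 1 and 16.2 CPM in WT 1, against 4.78 to 5.94 CPM in the other 6. The sum of 6 skeletal muscle genes was 194.8 CPM in WT 4, 289.6 CPM in WT 5, 165.4 CPM in Rbfox2 KO 1 and 33.3 CPM in WT 1. It was 0.983 to 13.9 CPM in the remaining livers. The main values that the 2 libraries with pancreatic transcripts touch are also given without them. The part of muscle RNA in the values below was not tested. Major urinary protein (Mup) transcripts, from 21 genes, made up 35.3% of counts in WT 3 and 6.54% in Rbfox2 KO 1, the extremes of the 8 livers, so levels in these libraries depend on the scaling, and orders of livers below hold on the TMM scale unless stated.

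The complement genes as a group took between 0.676% (WT 3) and 0.946% (Rbfox2 KO 1) of all counts. On the TMM scale the order differed, and their summed level was lowest in Rbfox2 KO 1 (7366 CPM) and highest in WT 4 (8986 CPM), with WT 3 at 8241 CPM. Their levels spanned more than 3 orders of magnitude on a per-length scale, the CPM per kb of merged exons. C3, the protein on which all activation routes converge, was the highest at 643 ± 72.5 CPM per kb (SD, n = 5 WT mice), and its transcript ranked 51st of 14654 genes by CPM. The next tier on the same per-length scale held Mbl2 at 235 ± 44.8, Serping1 at 192 ± 5.53, Cfi at 183 ± 15.4, C8g at 182 ± 35.1 and Cfhr2 at 166 ± 20.1 CPM per kb. In that order the SD ranges of each neighbouring pair overlapped, whereas those of Mbl2 and Cfhr2, the ends of the tier, did not. C4b at 117 ± 9.29 and C1s1 at 101 ± 6.06 CPM per kb followed. At the low end stood C3ar1 at 0.458 ± 0.168, C7 at 0.246 ± 0.0958 and C5ar1 at 0.226 ± 0.0747 CPM per kb, the last 2 again within each other's spread. The plot of per-length levels by pathway shows the WT and Rbfox2 KO points of nearly all genes lying on top of each other.

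**Figure D1:**
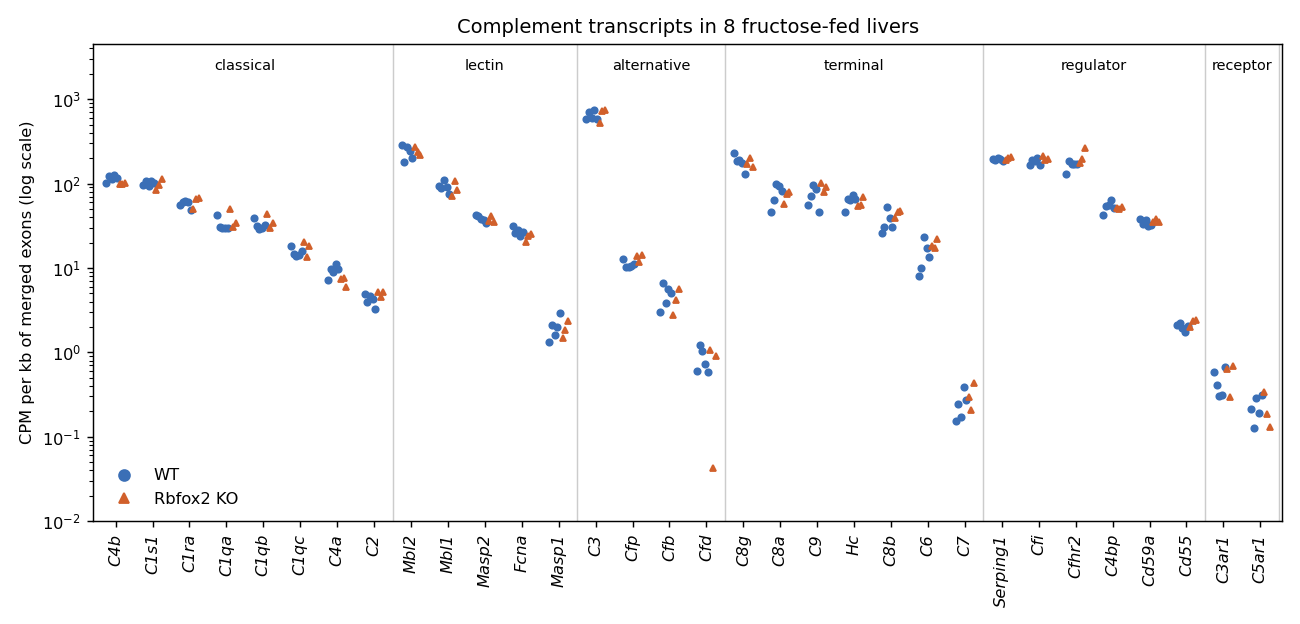
Level of each of the 32 complement genes in CPM per kb of merged exons (log scale), with genes grouped by role and sorted by level, WT livers as circles (n = 5) and Rbfox2 KO livers as triangles (n = 3). C3 stands highest, C7, C3ar1 and C5ar1 lie lowest together with Cfd, and the single low Cfd point is Rbfox2 KO 2.

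Of the 32 complement genes, 0 differed between Rbfox2 KO and WT livers at an adjusted p under 0.05 in the edgeR quasi-likelihood test, and 0.0% of all 14654 genes did. At an unadjusted p under 0.05 there were 3 of the 32 (9.38%), namely C4a at a lower level and Cfp and Cfhr2 at a higher level in Rbfox2 KO livers, beside a background of 4.74% of all genes (694, of which 353 were higher and 341 lower). CPM values of the 2 groups did not overlap for 1 of the 32 genes (C4b), against 3.71% of all genes. The median log2 fold change was 0.04 for the complement genes and 0.00095 for all genes, and the fitted values ran from -0.43 (C4a) to 0.41 (C6), with 18 positive and 14 negative. The 95% interval of the log2 fold change lay within ±0.5 for 17 of the 32 genes and within ±1 for 28 of them. With library totals in place of TMM, the count at an unadjusted p under 0.05 was again 3, beside 465 of all 14654 genes. The genes were then Cfhr2, C9 and C8b, all higher in Rbfox2 KO livers, with log2 fold changes of 0.44, 0.51 and 0.44. On that scale C4a had a log2 fold change of -0.30, its unadjusted edgeR p was 0.147, and C4b overlapped between the groups. C1ra and C8b did not overlap on that scale, both being higher in Rbfox2 KO livers. How many of all genes did so by library totals was not counted. DESeq2, run on the same counts, called 59 of all genes and 0 of the complement genes. Its unadjusted p was under 0.05 for 5 of the 32, beside 722 of all 14654 genes.

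**Figure D2:**
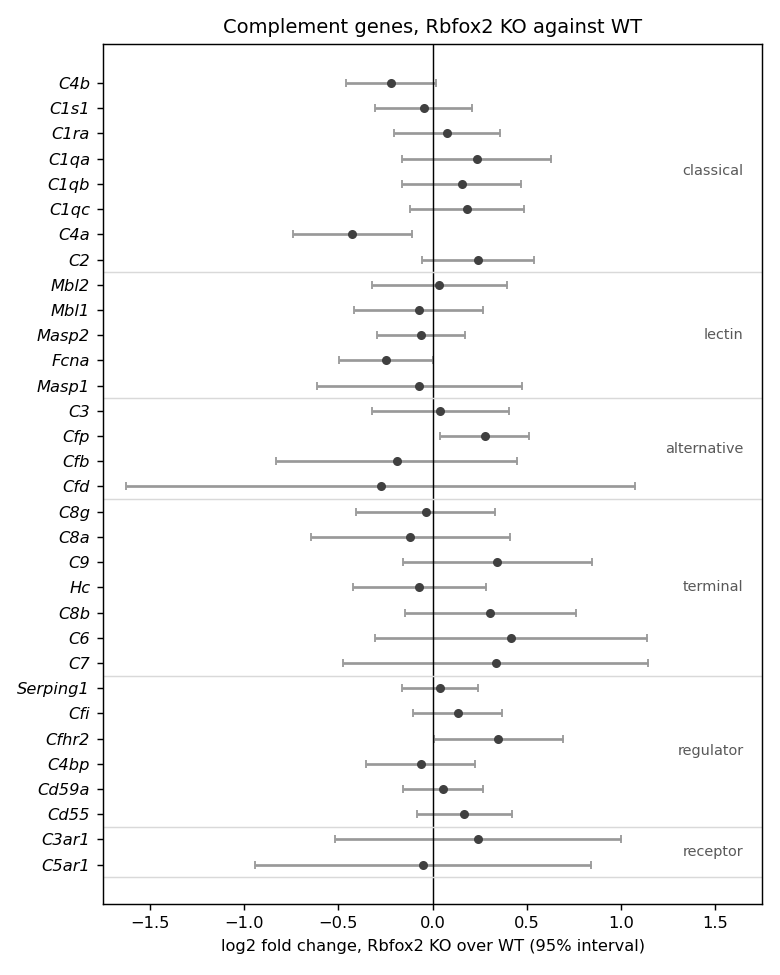
Log2 fold change of each complement gene, Rbfox2 KO over WT, from the edgeR fit over all genes, with bars giving the 95% interval and genes grouped by role. The intervals of C4a, Cfp and Cfhr2 leave out 0, and the widest interval belongs to Cfd, -1.63 to 1.07.

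Among the 8 classical pathway genes, 1 of the 2 copies of the fourth component, C4a, had the smallest p of all 32 complement genes. C4 is cut by C1s or the MASP proteases, and its larger fragment attaches to surfaces and forms part of the C3 convertase. The mouse carries 2 neighbouring copies on the minus strand of chromosome 17 of GRCm38, C4b (ENSMUSG00000073418, chr17:34728380-34743882 on the minus strand), which is the functional C4 gene, and C4a (ENSMUSG00000015451, chr17:34809092-34823464 on the minus strand), long known as sex-limited protein. In the GENCODE M21 annotation C4a is listed without a coding region. An alignment of their longest transcripts, of 5371 and 5379 bases, had 95.86% identity with 207 mismatches, and the longest identical run was 433 bases. Of the 100-base words of the C4a transcript, 16.5% also occur in C4b, so reads from those stretches cannot be placed, and how the authors' counting treated them was not stated. The stretch below shows where the copies can be told apart. It lies in exon 21 of both, at chr17:34816086-34816175 for C4a and chr17:34735430-34735519 for C4b, is written in the direction of transcription and marks in capitals the 14 bases that differ.
C4a: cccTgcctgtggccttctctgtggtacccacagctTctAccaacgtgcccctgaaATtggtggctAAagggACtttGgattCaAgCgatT
C4b: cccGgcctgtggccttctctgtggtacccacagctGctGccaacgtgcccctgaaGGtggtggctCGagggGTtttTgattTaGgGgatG

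C4a was measured at 44.4, 60.4, 54.9, 68.3 and 60.2 CPM in WT 1 to 5 and at 45.3, 46.7 and 36.8 CPM in Rbfox2 KO 1 to 3. All 3 Rbfox2 KO livers lay below 4 of the WT livers, and WT 1 lay within the Rbfox2 KO range. The means were 57.6 ± 8.81 CPM for WT (SD, n = 5) against 42.9 ± 5.38 CPM for Rbfox2 KO (SD, n = 3), a log2 fold change of -0.43 ± 0.14 (SE) with a 95% interval of -0.74 to -0.11. The edgeR p was 0.0131 before adjustment and 0.882 after it. The sign was negative under all 16 alternative settings tried, with an unadjusted p under 0.05 in 13 of them and a lowest adjusted p of 0.380. Without WT 1 and Rbfox2 KO 1 the log2 fold change was -0.55 for C4a and -0.26 for its neighbour C4b.

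C4b stood at 585, 704, 653, 720.4 and 661 CPM in WT 1 to 5 and at 560.0, 567 and 583 CPM in Rbfox2 KO 1 to 3. Every Rbfox2 KO liver was below every WT liver, although WT 1 and Rbfox2 KO 3 were nearly equal. Scaled by library totals, Rbfox2 KO 1 (719 CPM) lay above 4 WT livers, so this order holds on the TMM scale only. The means were 665 ± 52.9 CPM for WT (SD, n = 5) against 570.2 ± 11.9 CPM for Rbfox2 KO (SD, n = 3), the log2 fold change was -0.22 ± 0.11 (SE), and the unadjusted edgeR p was 0.0640. Of the counts of both copies, C4a made up 7.06%, 7.90%, 7.75%, 8.66% and 8.35% in WT 1 to 5. In Rbfox2 KO 1 to 3 the C4a share was 7.49%, 7.61% and 5.93%. The share was lowest in Rbfox2 KO 3, and the other Rbfox2 KO livers lay inside the WT range.

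**Figure D3:**
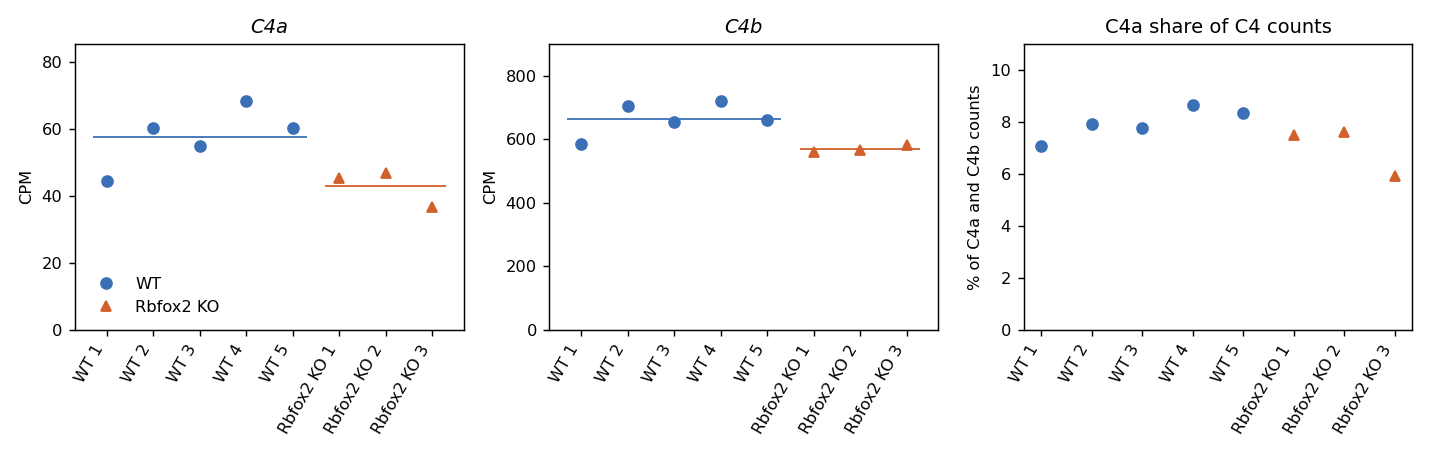
CPM of C4a (left) and C4b (middle) and the percent of the counts of both genes that C4a took (right) in each liver, with horizontal lines at group means, WT as circles (n = 5) and Rbfox2 KO as triangles (n = 3), and axes from 0. C4b spans 585 to 720.4 CPM in WT and 560.0 to 583 CPM in Rbfox2 KO livers, and for C4a only WT 1 reaches down into the Rbfox2 KO range.

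C1q, the recognition molecule of the classical pathway, is built from 3 chains encoded side by side on the minus strand of chromosome 4, C1qb (ENSMUSG00000036905, chr4:136880129-136886187 on the minus strand), C1qc (ENSMUSG00000036896, chr4:136889804-136893065 on the minus strand) and C1qa (ENSMUSG00000036887, chr4:136895917-136898803 on the minus strand). C1qa was measured at 44.6, 31.4, 31.3, 31.0 and 30.8 CPM in WT 1 to 5 and at 51.9, 31.9 and 35.4 CPM in Rbfox2 KO 1 to 3. C1qb gave 42.1, 33.7, 31.1, 32.8 and 35.5 CPM in the same WT livers and 47.9, 32.3 and 36.7 CPM in the Rbfox2 KO livers. C1qc gave 34.7, 28.6, 26.6, 27.4 and 30.4 CPM in the WT livers and 39.0, 26.3 and 35.2 CPM in the Rbfox2 KO livers. All 3 chains had their highest value in Rbfox2 KO 1 and, among WT livers, in WT 1, the same 2 libraries that carried pancreatic transcripts, and the groups overlapped for each chain.

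The C1q log2 fold changes were 0.23 ± 0.18 (SE) for C1qa, 0.15 ± 0.14 (SE) for C1qb and 0.18 ± 0.14 (SE) for C1qc. Without Rbfox2 KO 1 they were -0.01, -0.03 and 0.05, and without both WT 1 and Rbfox2 KO 1 they were 0.11, 0.04 and 0.12. C1q is made by macrophages, including the resident Kupffer cells, and the Albumin-driven deletion does not reach these cells. In bulk liver RNA, fewer cells of a type and less RNA per cell cannot be told apart. The summed level of 9 Kupffer cell and macrophage markers was 216 to 249 CPM in WT livers and 289, 225 and 302 CPM in Rbfox2 KO 1 to 3 (exact two-sided permutation p = 0.0714, adjusted over 10 marker lists 0.536), and none of the 9 was at 0. Of these markers, 2 had an unadjusted edgeR p under 0.05, both higher in Rbfox2 KO livers, beside 4.74% of all genes. Their log2 fold changes were 1.16 for Marco and 0.44 for Cd5l, with adjusted edgeR p of 0.138 and 0.864. Cd5l in Rbfox2 KO 2 (73.2 CPM) lay within the WT range of 67.2 to 75.6 CPM. Clec4f, which marks Kupffer cells, had a log2 fold change of -0.03. Of all 9 markers, 7 had a positive value and 2 a negative one. The part of these markers in the C1q values was not tested. The summed C1q level per 100 CPM of the markers was 52.8 in WT 1, 38.8 to 42.7 in the other WT livers, and 48.1, 40.2 and 35.5 in Rbfox2 KO 1 to 3, so WT 1 and Rbfox2 KO 1 remained the 2 highest after this division.

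**Figure D4:**
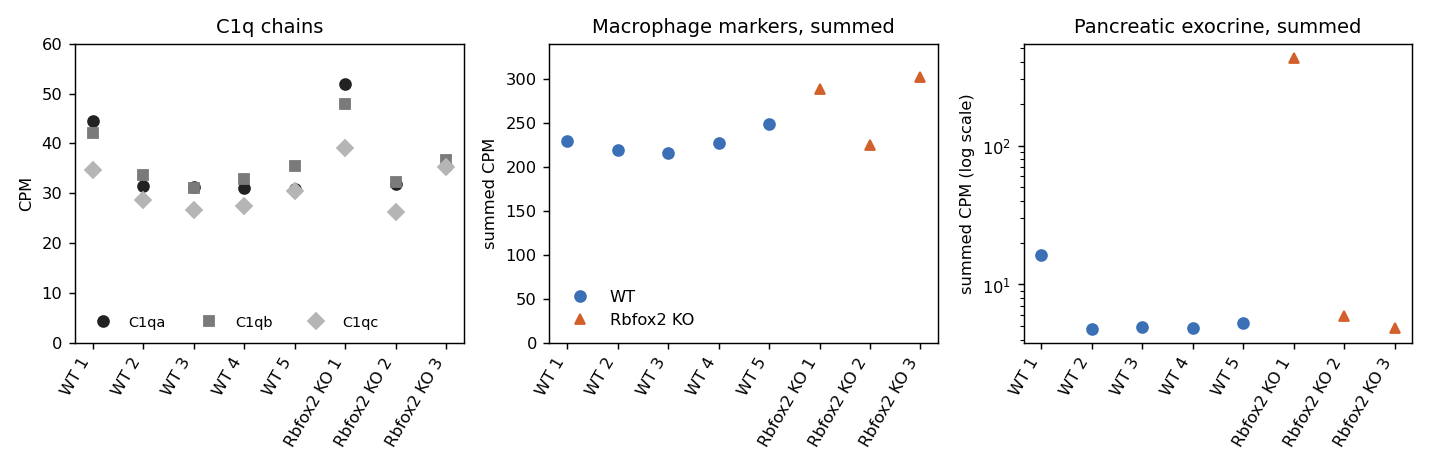
CPM of C1qa, C1qb and C1qc (left), summed CPM of 9 macrophage markers (middle, axis from 0) and summed CPM of 10 pancreatic exocrine genes (right, log scale) in each liver. All 3 chains peak in WT 1 and Rbfox2 KO 1, where the pancreatic sum is also highest (16.2 and 429.6 CPM), whereas the macrophage sum is highest in Rbfox2 KO 3 (302 CPM).

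C2 (ENSMUSG00000024371, chr17:34862604-34898265 on the minus strand), the protease that pairs with the active C4 fragment in the classical C3 convertase, was the lowest classical gene by CPM. It was measured at 19.2, 15.4, 17.8, 16.5 and 12.6 CPM in WT 1 to 5 and at 20.2, 17.4 and 20.1 CPM in Rbfox2 KO 1 to 3. The groups overlapped, with WT 1 and WT 3 above Rbfox2 KO 2, and the log2 fold change was 0.24 ± 0.13 (SE). C1ra, the protease that C1q activates first, spanned 145 to 187 CPM in WT and 150.4 to 202 CPM in Rbfox2 KO livers, a log2 fold change of 0.08. By library totals C1ra spanned 153 to 179 CPM in WT and 183 to 193 CPM in Rbfox2 KO livers. C1s1, the protease that C1r activates in turn, spanned 293 to 335 CPM in WT and 265 to 356 CPM in Rbfox2 KO livers, a log2 fold change of -0.05. C1ra shares 35.9% of its 100-base words with other genes, mainly its copy C1rb, and C2 shares 53.2% with Gm20547, a read-through model listed at 0 in all 8 libraries, so these levels depend on how the counting treated shared reads.

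Among the 5 lectin pathway genes, 4 had a negative and 1 a positive log2 fold change, and none had an unadjusted edgeR p under 0.05. Mannose-binding lectins bind sugars on microbes, and Mbl2 (ENSMUSG00000024863, chr19:30232942-30239687 on the plus strand) was the highest lectin gene by CPM. Its values were 310.4, 194, 292, 264 and 219 CPM in WT 1 to 5 and 294, 256 and 236 CPM in Rbfox2 KO 1 to 3. The Rbfox2 KO livers lay wholly within the WT range, with means of 256 ± 48.8 CPM for WT (SD, n = 5) against 262 ± 29.1 CPM for Rbfox2 KO (SD, n = 3) and a log2 fold change of 0.04 ± 0.16 (SE), 95% interval -0.32 to 0.39. Mbl1, the second mannose-binding lectin, spanned 117 to 173 CPM in WT and 111 to 168 CPM in Rbfox2 KO livers, and the ratio of Mbl2 to Mbl1 CPM was 1.41 to 2.12 in WT and 1.53 to 2.64 in Rbfox2 KO livers.

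Masp1 (ENSMUSG00000022887, chr16:23449417-23520815 on the minus strand), a protease bound to these lectins, was the lowest lectin gene. It gave 12.9, 21.0, 15.8, 19.7 and 28.4 CPM in WT 1 to 5 and 14.7, 18.0 and 23.2 CPM in Rbfox2 KO 1 to 3, again with all Rbfox2 KO livers inside the WT range. Its WT values differed by 2.20-fold between the lowest and highest mouse, and the log2 fold change was -0.07 ± 0.24 (SE). Masp2, the protease that cuts C4 and C2, spanned 114 to 142 CPM in WT and 117 to 135 CPM in Rbfox2 KO livers, but 54.9% of its exonic bases overlap Tardbp on the opposite strand and whether counting used strand was not stated. Fcna, which encodes ficolin A, a sugar-binding starter of the pathway, spanned 33.2 to 43.5 CPM in WT and 27.7 to 34.3 CPM in Rbfox2 KO livers. Its log2 fold change was -0.25 ± 0.11 (SE) with an unadjusted edgeR p of 0.0513, and without WT 1 and Rbfox2 KO 1 the log2 fold change was -0.11.

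In the alternative pathway, C3 (ENSMUSG00000024164, chr17:57203970-57228136 on the minus strand) was measured at 3012, 3634, 3095, 3785 and 3007 CPM in WT 1 to 5 and at 2697, 3679 and 3827 CPM in Rbfox2 KO 1 to 3. Both the lowest and the highest liver were Rbfox2 KO livers, so the spread within that group was wider than the distance between the groups. The means were 3307 ± 373 CPM for WT (SD, n = 5) against 3401 ± 614 CPM for Rbfox2 KO (SD, n = 3), a log2 fold change of 0.04 ± 0.16 (SE) with a 95% interval of -0.32 to 0.40. Without Rbfox2 KO 1, the lowest liver, it was 0.18, and without both WT 1 and Rbfox2 KO 1 it was 0.14. C3 alone took 0.254% to 0.363% of all counts.

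Cfp (ENSMUSG00000001128, chrX:20925454-20931555 on the minus strand) encodes properdin, which stabilises the alternative C3 convertase. It was measured at 21.9, 17.8, 18.0, 18.3 and 19.3 CPM in WT 1 to 5 and at 24.3, 20.3 and 24.7 CPM in Rbfox2 KO 1 to 3. All 3 Rbfox2 KO livers lay above 4 of the WT livers, and WT 1 lay between them. The means were 19.1 ± 1.70 CPM for WT (SD, n = 5) against 23.1 ± 2.45 CPM for Rbfox2 KO (SD, n = 3), and the log2 fold change was 0.28 ± 0.11 (SE). The edgeR p was 0.0272 before and 0.954 after adjustment. The fold change was positive under all 16 alternatives, with an unadjusted p under 0.05 in 9 of them, and was 0.29 without WT 1 and Rbfox2 KO 1. Properdin is a myeloid product, and the macrophage sum given above was highest in Rbfox2 KO 1 and Rbfox2 KO 3, the livers with most Cfp. Among the other livers the orders differed, with Cfp highest in WT 1 and the macrophage sum highest in WT 5. Fcna went the other way and was lowest in Rbfox2 KO 1 (27.7 CPM). The sum of 6 neutrophil and monocyte markers was 3.97 to 5.80 CPM in WT livers and 10.2, 4.05 and 5.20 CPM in Rbfox2 KO 1 to 3. The part of either cell type in the Cfp values was not tested.

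Cfd (ENSMUSG00000061780, chr10:79890853-79892655 on the plus strand), the gene of factor D or adipsin, a protease that cuts factor B, was near the floor. WT 1 to 5 had 15, 35, 27, 19 and 18 counts, or 0.554, 1.13, 0.949, 0.664 and 0.532 CPM. Rbfox2 KO 1 to 3 had 31, 1 and 30 counts, or 0.973, 0.0393 and 0.839 CPM. The count of 1 in Rbfox2 KO 2 is below the 3 counts taken as measurable, and a difference between the groups was not detectable at this depth. The fitted log2 fold change was -0.28 ± 0.61 (SE), and 0.24 without Rbfox2 KO 2. Adipoq, an adipocyte hormone gene, was highest in Rbfox2 KO 1 (0.973 CPM) and Rbfox2 KO 3 (0.475 CPM) and at 0 in Rbfox2 KO 2, with 0.0699 to 0.414 CPM in WT livers. Cfd itself was highest in WT 2, where Adipoq was 0.226 CPM. The whole list of 6 adipocyte markers, most of it Plin4, summed to 38.6 to 66.7 CPM in WT livers. It summed to at most 36.8 CPM in Rbfox2 KO livers (exact two-sided permutation p = 0.107, adjusted over 10 lists 0.536). Most of the rest was Cidea, at 3.49 to 19.3 CPM in WT and 0.0839 to 2.16 CPM in Rbfox2 KO livers. The sparse Adipoq, Lep, Retn and Plin1 were each highest in Rbfox2 KO 1, so the sum does not describe them. The part of adipocyte RNA in the Cfd values was not tested. Cfb, the gene of factor B, the catalytic part of the alternative convertase, spanned 8.49 to 18.5 CPM in WT and 7.91 to 16.1 CPM in Rbfox2 KO livers, and 81.0% of its 100-base words are shared with Gm20547.

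With TMM scaling, the 7 terminal pathway genes varied widely from mouse to mouse. Their median coefficient of variation (CV) over the 5 WT mice was 29.4%. It was 14.8% for all 32 complement genes and 15.4% for all 14654 genes. On this scale the median CV was 11.5% for the classical genes, 13.8% for the lectin genes and 20.5% for the alternative pathway genes. It was 8.50% for the regulators and 34.9% for the sparsely counted receptors. The width of the terminal spread, and its distance from the other roles, depend on the scaling. With library totals the middle value of the 7 terminal CVs was 21.0%, that of C9. The 4 alternative pathway genes then had CVs of 14.2% (C3), 33.4% (Cfb), 30.9% (Cfd) and 16.3% (Cfp). By library totals the CV fell from 29.4% to 19.5% for C8b, from 29.8% to 21.0% for C9 and from 43.1% to 34.9% for C6. It also fell from 28.7% to 26.5% for C8a and from 19.3% to 17.6% for C8g. For Hc it rose from 16.4% to 19.9%, and for C7 from 38.9% to 42.0%. C6, C7 and C9 lie near each other on chromosome 15, and C8a and C8b lie side by side on chromosome 4 on opposite strands. Among the terminal genes, C6, C8a, C8b and C9 were highest in WT 3 of the WT livers, and their RefSeq promoters are printed below as sequence. This choice was made after the values were seen, and by library totals C6 and C8b were still highest in WT 3, whereas C8a was highest in WT 5 and C9 in WT 4. Each holds the 250 bases before and 50 after the annotated start in GRCm38.p6, 5′ to 3′ on the strand of the gene, with motif matches in capitals. RefSeq entries were found for 24 of the 32 complement genes.
C6, at chr15:4726960-4727259 on the plus strand: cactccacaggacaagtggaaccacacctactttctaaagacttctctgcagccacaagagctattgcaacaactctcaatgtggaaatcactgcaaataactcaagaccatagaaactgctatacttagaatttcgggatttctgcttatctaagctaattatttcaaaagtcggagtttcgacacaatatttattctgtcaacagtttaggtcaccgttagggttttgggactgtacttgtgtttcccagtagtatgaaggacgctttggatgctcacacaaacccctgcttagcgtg
C8a, at chr4:104876349-104876648 on the minus strand: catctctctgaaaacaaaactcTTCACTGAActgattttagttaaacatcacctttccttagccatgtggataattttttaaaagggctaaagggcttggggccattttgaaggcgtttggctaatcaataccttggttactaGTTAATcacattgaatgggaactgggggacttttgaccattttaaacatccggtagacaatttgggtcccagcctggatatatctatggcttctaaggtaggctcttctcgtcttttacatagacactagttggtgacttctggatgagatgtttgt
C8b, at chr4:104766067-104766366 on the plus strand: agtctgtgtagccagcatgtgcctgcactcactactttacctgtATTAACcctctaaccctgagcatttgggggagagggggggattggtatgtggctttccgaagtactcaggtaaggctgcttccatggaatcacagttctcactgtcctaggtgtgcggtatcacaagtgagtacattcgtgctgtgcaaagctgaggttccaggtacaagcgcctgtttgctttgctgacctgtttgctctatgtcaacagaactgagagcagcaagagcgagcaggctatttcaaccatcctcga
C9, at chr15:6445096-6445395 on the plus strand: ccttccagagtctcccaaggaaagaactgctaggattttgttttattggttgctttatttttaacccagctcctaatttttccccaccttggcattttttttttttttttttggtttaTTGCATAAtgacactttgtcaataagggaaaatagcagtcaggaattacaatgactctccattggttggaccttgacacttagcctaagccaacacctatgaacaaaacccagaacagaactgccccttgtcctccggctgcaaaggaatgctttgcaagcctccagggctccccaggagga

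Motifs of 3 liver regulators were searched on both strands, and matches of different motifs did not share letters in these windows. The HNF1-type element GTTAAT was found in C8a and, on the other strand, in C8b, and it occurs in 7.10% of 32851 promoters of this length and in 9 of 26 windows of complement genes. The STAT element TTCNNNGAA was found in C8a, and it occurs in 8.30% of all promoters and in 5 of the 26 windows. The C/EBP-type element TTGCNNAA was found in C9, and it occurs in 10.8% of all promoters and in 4 of the 26 windows. None of these motifs was in the C6 window, so no motif was found in all of the printed promoters. The matches describe sequence only, and no binding was measured.

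C6 (ENSMUSG00000022181, chr15:4727175-4814967 on the plus strand), which binds C5b and starts assembly of the membrane attack complex, was measured at 28.4, 35.2, 83.7, 61.9 and 47.8 CPM in WT 1 to 5. The Rbfox2 KO livers had 64.6, 61.7 and 79.1 CPM. All Rbfox2 KO livers lay in the upper part of the WT range, below WT 3, and the WT mice alone differed by 2.95-fold. The means were 51.4 ± 22.1 CPM for WT (SD, n = 5) against 68.5 ± 9.30 CPM for Rbfox2 KO (SD, n = 3), with the largest positive log2 fold change of the 32 genes, 0.41 ± 0.32 (SE). The 95% interval was -0.31 to 1.14 and the unadjusted edgeR p 0.225. The estimate rested on single WT livers, since it was 0.26 without WT 1 and 0.66 without WT 3, and 0.30 without both WT 1 and Rbfox2 KO 1. Without WT 3 its unadjusted edgeR p was 0.0245. With TMM scaling, its WT CV of 43.1% was above that of 92.7% of all 14654 genes and was the largest of the complement genes. By library totals it was 34.9%, and C3ar1 had a larger one of 46.3%. The ratio of C6 to Hc CPM was 0.0854 to 0.210 over the WT livers and 0.179 to 0.192 over the Rbfox2 KO livers.

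Hc (ENSMUSG00000026874, chr2:34983331-35061438 on the minus strand), the mouse gene of C5, was the highest terminal gene by CPM. Its values were 286, 412, 398, 460.4 and 409 CPM in WT 1 to 5 and 337, 346 and 439 CPM in Rbfox2 KO 1 to 3. WT 1 was the lowest liver and the Rbfox2 KO livers fell inside the WT range, with a log2 fold change of -0.07 ± 0.16 (SE), or -0.10 without WT 1 and Rbfox2 KO 1. C7 (ENSMUSG00000079105, chr15:4988762-5063740 on the minus strand), the next protein to join the complex, was the lowest terminal gene, with 11 to 41 counts per library. It gave 0.406, 0.646, 0.457, 1.05 and 0.739 CPM in WT 1 to 5 and 0.784, 0.551 and 1.15 CPM in Rbfox2 KO 1 to 3. Its groups overlapped widely, and the log2 fold change was 0.34 ± 0.36 (SE). Leaving out 1 library at a time gave 0.021 (without Rbfox2 KO 3) to 0.56 (without WT 4).

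The 3 chains of C8 did not vary in the same order. C8a was 167, 232, 363, 339 and 295 CPM in WT 1 to 5 and 207, 277 and 288 CPM in Rbfox2 KO 1 to 3. C8b was 66.7, 76.8, 133, 99.7 and 76.8 CPM in WT 1 to 5 and 101, 117 and 119 CPM in Rbfox2 KO 1 to 3. By library totals C8b spanned 66.1 to 109.2 CPM in WT and 110.0 to 129 CPM in Rbfox2 KO livers. C8g, a lipocalin-like chain encoded on chromosome 2, was 340.1, 279, 285, 261 and 194 CPM in WT 1 to 5 and 256, 302 and 237 CPM in Rbfox2 KO 1 to 3. C8a and C8b were lowest in WT 1 and, with TMM scaling, highest in WT 3, whereas C8g was highest in WT 1 and lowest in WT 5. The ratio of C8a to C8b CPM was 2.51 to 3.84 in WT and 2.05 to 2.43 in Rbfox2 KO livers, ranges that did not meet. That ratio was singled out after its values were seen, so it is given without a test. Separately, C8a had a log2 fold change of -0.12 ± 0.24 (SE), C8b of 0.31 ± 0.20 (SE) and C8g of -0.04 ± 0.17 (SE). Without WT 1 and Rbfox2 KO 1 these were -0.13, 0.28 and 0.07, so the sign of C8g changed.

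C9, which forms the pore of the complex, was 141, 184, 248, 222 and 117 CPM in WT 1 to 5 and 256, 205 and 233 CPM in Rbfox2 KO 1 to 3. The Rbfox2 KO livers lay in the upper part of the combined range, with a log2 fold change of 0.34 ± 0.22 (SE) that was 0.18 without WT 1 and Rbfox2 KO 1. The sum of 11 acute phase genes, a group of liver transcripts raised in inflammation, was 7121 to 9096 CPM in WT livers and 9601, 7852 and 8513 CPM in Rbfox2 KO 1 to 3, so Rbfox2 KO 1 was the highest liver for both. The part of an acute phase state in the C9 values was not tested.

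**Figure D5:**
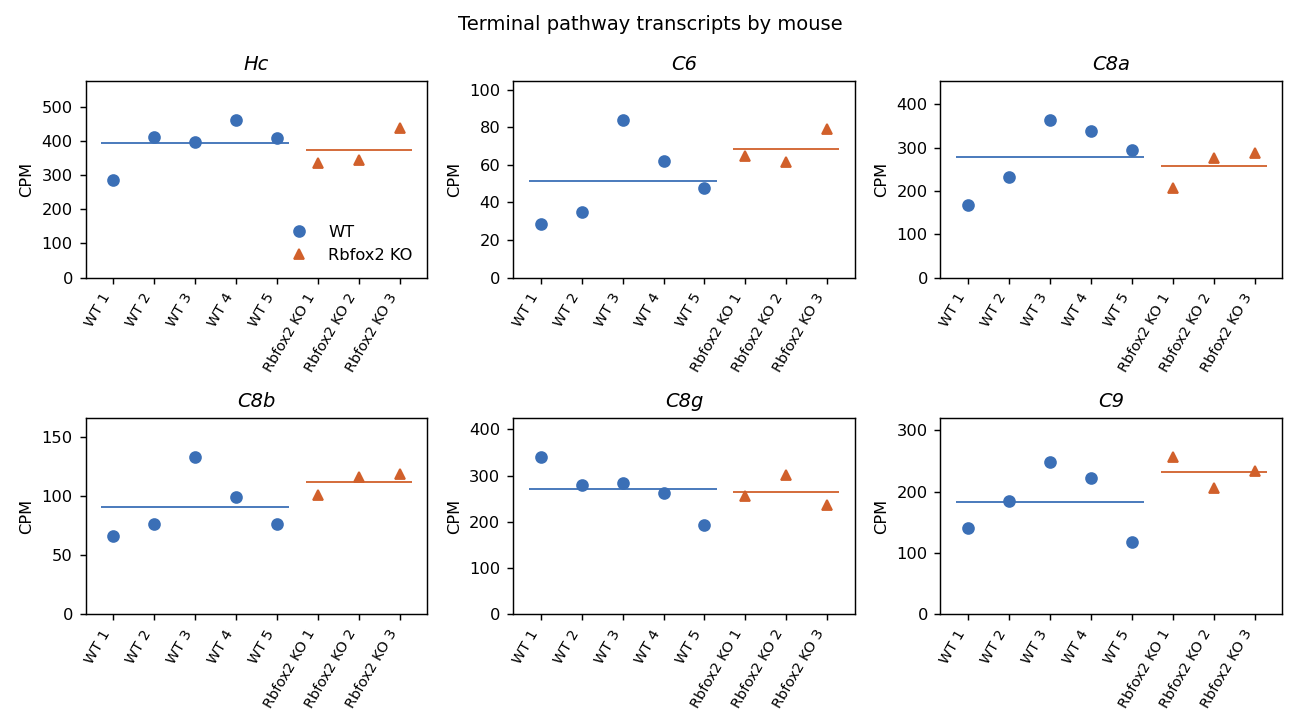
CPM of 6 terminal pathway genes in each liver (axes from 0), with horizontal lines at group means, WT as circles (n = 5) and Rbfox2 KO as triangles (n = 3). On this TMM scale C6, C8a, C8b and C9 reach their highest WT value in WT 3, which by library totals holds for C6 and C8b, and for C6 the WT livers span 28.4 to 83.7 CPM while the Rbfox2 KO livers span 61.7 to 79.1 CPM.

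The regulators, which limit activation on host cells and in plasma, had the lowest median CV of the 6 roles. Serping1 (ENSMUSG00000023224, chr2:84765387-84775444 on the minus strand), the C1 inhibitor, which blocks C1r, C1s and the MASP proteases, was the highest of them by CPM. It was 450.2, 446, 461, 450.2 and 426 CPM in WT 1 to 5 and 438, 462 and 478 CPM in Rbfox2 KO 1 to 3. The 8 livers were nearly level, with a WT CV of 2.88%, and 0.662% of all genes had a lower one. By library totals the WT CV was 8.51%. The means were 447 ± 12.9 CPM for WT (SD, n = 5) against 459 ± 20.3 CPM for Rbfox2 KO (SD, n = 3), and the log2 fold change was 0.04 ± 0.09 (SE), 95% interval -0.16 to 0.24.

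Cfhr2 (ENSMUSG00000033898, chr1:139804167-139858702 on the minus strand), a factor H-related gene, was measured at 254, 356, 332, 329 and 332 CPM in WT 1 to 5 and at 340.3, 373 and 509.8 CPM in Rbfox2 KO 1 to 3. WT 1 was lowest and Rbfox2 KO 3 highest, and Rbfox2 KO 1 lay within the WT range. The means were 320.4 ± 38.8 CPM for WT (SD, n = 5) against 408 ± 89.9 CPM for Rbfox2 KO (SD, n = 3). Its log2 fold change was 0.35 ± 0.15 (SE). The unadjusted edgeR p was 0.0471, and the gene did not pass after adjustment. Its sign was positive under all 16 alternatives, and the unadjusted p was under 0.05 in 10 of them. The size rested on Rbfox2 KO 3, since the log2 fold change was 0.15 without that library and the unadjusted edgeR p 0.316. Leaving out 1 of the others gave 0.27 (without WT 1) to 0.46 (without Rbfox2 KO 1), and leaving out both WT 1 and Rbfox2 KO 1 gave 0.38. Of its 100-base words, 19.9% are shared with other genes of the same cluster, Gm16332 among them.

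Cd55 (ENSMUSG00000026399, chr1:130439027-130462744 on the minus strand), a membrane protein that speeds the decay of C3 convertases, was the lowest regulator. It was 10.2, 10.8, 9.45, 8.56 and 9.85 CPM in WT 1 to 5 and 9.60, 11.4 and 11.9 CPM in Rbfox2 KO 1 to 3. Rbfox2 KO 1 lay within the WT range and the other 2 Rbfox2 KO livers above it, and the log2 fold change was 0.17 ± 0.11 (SE). Among the other regulators, Cfi, the protease that inactivates the surface-bound fragments of C3 and C4, spanned 369.9 to 449 CPM in WT and 426 to 473 CPM in Rbfox2 KO livers (log2 fold change 0.13). C4bp, a plasma cofactor for that protease, spanned 286 to 429 CPM in WT and 335 to 357 CPM in Rbfox2 KO livers (-0.06). Cd59a, which blocks insertion of C9 into membranes, spanned 57.4 to 68.9 CPM in WT and 63.0 to 69.0 CPM in Rbfox2 KO livers (0.05).

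Both receptors of the inflammatory fragments were rare transcripts in liver. C3ar1 (ENSMUSG00000040552, chr6:122847138-122856161 on the minus strand), the receptor for C3a, was 2.55, 1.78, 1.30, 1.33 and 2.90 CPM in WT 1 to 5 and 2.76, 1.26 and 2.94 CPM in Rbfox2 KO 1 to 3. High and low livers occurred in both groups, with a log2 fold change of 0.24 ± 0.34 (SE). With 1 library left out it ran from 0.035 (without Rbfox2 KO 3) to 0.53 (without Rbfox2 KO 2). C5ar1 (ENSMUSG00000049130, chr7:16246743-16259540 on the minus strand), the receptor for C5a, was read 15, 10, 21, 14 and 27 times in WT 1 to 5, or 0.554, 0.323, 0.738, 0.489 and 0.798 CPM. Rbfox2 KO 1 to 3 had 28, 12 and 12 counts, or 0.878, 0.472 and 0.336 CPM. Its groups overlapped throughout, and the log2 fold change was -0.05 ± 0.40 (SE), with a wide 95% interval of -0.94 to 0.84.

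A further 27 genes of the pathway outside the list were examined, and 24 of them passed the filter. None of the 24 passed the adjusted threshold in edgeR, and 1 of 24 (4.17%) had an unadjusted p under 0.05, beside the 4.74% of all genes. It was Cr2, the complement receptor best known on B cells, with 2, 22, 3, 10 and 18 counts in WT 1 to 5 and 2, 1 and 5 counts in Rbfox2 KO 1 to 3, and a log2 fold change of -2.04 ± 0.80 (SE). At this depth 4 of the 8 values were at or below the floor of 3 counts. Clu, the gene of clusterin, a plasma inhibitor of the terminal complex, was the 1 gene of the 24 whose groups did not overlap. This is 4.17% of them, against 3.71% of all genes. Clu was 925, 875, 916, 912 and 793 CPM in WT 1 to 5 and 1014, 1015 and 952 CPM in Rbfox2 KO 1 to 3. Its log2 fold change was 0.17 ± 0.11 (SE), with an unadjusted edgeR p of 0.144. By library totals Rbfox2 KO 3 lay below WT 1, so this order holds on the TMM scale only.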

How the data were processed

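Poly(A)-selected liver RNA was sequenced, and the authors aligned reads to GRCm38 with TopHat2 (version 2.0.11 per the submitters' processing notes) and counted them per gene with featureCounts. They deposited unnormalized read counts for each Ensembl gene in 8 samples, which were grouped by the labels. Strand and multiple alignments in counting were not given in the sources used here. Nothing says how the mice were caged, so p-values measure only the spread between these samples. No 2 libraries of a group agreed within sampling noise (chi-square per degree of freedom 45.5 to 346).

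Symbols, exon lengths and positions came from GENCODE M21, which named 45143 of 46078 rows, and promoters from RefSeq GRCm38.p6. The complement genes and lists were chosen with earlier results of these data known. Genes were filtered with filterByExpr, scaled by TMM and tested with the quasi-likelihood method of edgeR 4.0.16 (robust fit, R 4.3.3), genotype being the only term, with Benjamini-Hochberg adjustment over 14654 genes at 0.05. The procedure was tested on simulated data, with changes set in well-counted genes. There edgeR found 60 of 100 genes with a log2 change of 1 and 92 of 100 with a log2 change of 2. False calls were 6.75% of all calls in edgeR, 15.8% in DESeq2 and 3.27% in limma-voom. Marker sums and Rbfox2 were compared by exact two-sided permutation over 56 splits. Floors of 3 counts cover counting error only.

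Values in every sample are given for the highest and lowest gene of each role, genes at an unadjusted p under 0.05 or with groups that did not overlap, the 3 with the largest WT CV, the C1q chains and both C4 genes. C8a, C8b, C8g and C9 were added after their values were seen. Alternatives were DESeq2 1.42.0, limma-voom (limma 3.58.1), other scalings and filters, a non-robust fit, a replicate block and leaving out samples. The fit without WT 1 and Rbfox2 KO 1 was chosen after seeing the data. Splicing was not analysed here.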

Additional observations from a re-analysis of the deposited data

Results flagged for a closer look

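Of 52 group values tested for a sample far from the rest of its group, 5 stood apart, where chance gives about 2.6, and all 5 were in WT 1. The C1qa level, the C1q sum and its ratio to macrophage markers share values. The 5 are therefore not independent and cannot be weighed against 2.6. In WT 1 the C1qa level was 44.6 CPM (other WT livers 30.8 to 31.4), the Cfhr2 level was 254 CPM (others 329 to 356) and the C1q chains summed to 121 CPM (others 89.0 to 96.8). The C1q sum per 100 CPM of macrophage markers was 52.8 in WT 1 (others 38.8 to 42.7). The pancreatic exocrine markers summed to 16.2 CPM in WT 1 (others 4.78 to 5.29). The same markers, which belong to none of the complement comparisons, reached a sum of 429.6 CPM in Rbfox2 KO 1, where the WT livers had 4.78 to 16.2 CPM.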

How the results depend on the processing

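The count of complement genes past the adjusted threshold was 0 under every alternative run. At an unadjusted p under 0.05, the 3 complement genes became 5 with DESeq2 and 1 to 5 with 1 sample left out (5 without WT 1, 1 without Rbfox2 KO 3). Of all tested genes at that limit there were 722 of 14654 with DESeq2, 866 of 14578 without WT 1 and 872 of 14950 without Rbfox2 KO 3. The 1 other complement gene became 2 with DESeq2, and 0 with limma-voom, with the stricter filter and with the replicate block, and 0 to 2 with 1 sample left out (2 without WT 1 or Rbfox2 KO 3, 0 without any of the others). Genes called among all tested were 0 in edgeR (694 at an unadjusted p under 0.05), 6 without a filter on low counts and 59 with DESeq2. With library totals as scaling, the median of all genes was 0.12, that of the complement genes went from 0.04 to 0.16, and the genes at an unadjusted p under 0.05 were 345 higher and 120 lower, against 353 and 341 with TMM. The log2 fold change of Rbfox2 passed the threshold with DESeq2 (-1.03, adjusted p = 0.0019) and was -1.30 to -0.85 with 1 sample left out.

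Sample numbers 1 to 3 occur in both groups. Correlations of same-numbered samples were 0.0484 to 0.170, not all above 0.1, with a mean of 0.127. The mean over all other pairs was -0.031, and 0 of 3 samples correlated best with their own number. Pairing by number was thus not shown, and so few samples cannot exclude it. With the replicate block, 2 complement genes had an unadjusted p under 0.05, beside 739 of all 14654 genes, and 0 were called. The median log2 fold change of the complement genes was then 0.05 and that of Rbfox2 was -0.96. Among 171 values of the 19 named genes under other settings, 166 kept their direction and their side of the threshold and 5 changed sign: Masp1 0.18, Hc 0.042 and C5ar1 0.022 with the block, and Hc 0.029 and C5ar1 0.12 with library totals. With 1 sample left out, 138 of 152 values kept direction and side. Those that changed sign ran from -0.011 to 0.37 for C1qa, -0.028 to 0.27 for C1qb, -0.059 to 0.11 for Mbl2, -0.26 to 0.10 for Masp1, -0.053 to 0.18 for C3, -0.72 to 0.24 for Cfd and -0.54 to 0.23 for C5ar1. The cause of these changes was not tested. With 3 Rbfox2 KO mice, 4 of the 32 genes had a 95% interval reaching beyond ±1 on the log2 scale, and Cfd, C7 and C5ar1 rest on fewer than 42 counts per library.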
